A study of Gossypium hirsutum with 12 samples.

Results

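Of 70477 cotton genes with read counts, 178 rose from 24 h to 48 h after transplanting in well-watered and in water-stressed root tips alike, and their levels in the 12 libraries are described here. The members were chosen on measured values. CPM, counts per 1000000, is the read count of a gene scaled to the reads counted in genes, and R is the log2 ratio of the group means after 0.5 CPM is added to each. A gene was taken where R was at least 1.5 in WW48/WW24 and in WS48/WS24, the mean over the 12 libraries was at least 5 CPM, and the lowest 48 h library lay above the highest 24 h library in each treatment. Of 27888 genes at that level, 617 (2.21%) met the demands on watered roots, 293 (1.05%) those on stressed roots and 182 both, and 4 genes of the glutathione S-transferase family were set aside from these 182, beside 1 more that did not meet the rule.

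The samples were primary root tips of cultivar AU90810, grown in the dark in vermiculite, with tips of several seedlings pooled in each library. WW24 and WW48 came from well-watered medium at -0.02 MPa and were the apical 12 mm at 24 h and 48 h, and WS24 and WS48 came from medium at -1.0 MPa and were the apical 6 mm at the same times, each with 3 libraries that the paper places in independent experiments. WS48 was set against WW24 as a control of like development and against WW48 as a control of like age, whereas for WS24 the study had only a control of like age, WW24. The stressed piece was shorter than the watered one, so treatment and the stretch of root sampled cannot be told apart, and in pooled tissue fewer cells of a type and less RNA per cell cannot be told apart either.

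Cells of a growing root are made at the tip, elongate, and then differentiate as they are left behind, and in the xylem this ends with secondary walls that are strengthened with lignin. Laccases are copper enzymes that oxidise lignin precursors in the wall, and O-methyltransferases add methyl groups to phenolic and other small molecules, lignin precursors among them. Proteins of the heavy metal transport/detoxification superfamily carry a metal-binding domain. These are the functions known here for members: 2 genes of laccase 14, 2 genes of the O-methyltransferase family and 1 gene of the heavy metal superfamily. Functions came from the paper's tables, which cover 1767 genes, and 173 members have none there and are given by their IDs alone. In those IDs A and D name the subgenomes of this tetraploid, and the number that follows is the chromosome.

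Counts in genes ranged from 6433993 to 11316010 per library. WW24 replicate 2 stood apart from its group: on the first principal component, which held 46% of the variance, it was at 90.4 against -29.1 and -6.1 in the other WW24 libraries and 97.6 to 147.7 in WW48. Its summed level of 7 xylem marker genes that are not members was 460 CPM, against 151 and 200 CPM in the other WW24 libraries and 278 to 449 CPM in WW48, and 58.1% of its sum came from the laccase 14 gene Gh_A05G2115. Without that gene the other 6 summed to 192 CPM in it, against 35.5 and 65.2 CPM in the other WW24 libraries and 68.5 to 105 CPM in WW48. Root hair markers (5 genes) were also highest there, at 518 CPM against 186 and 224 CPM. WS48 replicate 2 differed from the other WS48 libraries in the members more than in those markers, as given next.

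The 178 genes took up little of the RNA at 24 h and far more at 48 h in watered roots. Their summed level was 858, 4296 and 1369 CPM in WW24, 909, 735 and 958 CPM in WS24, 13440, 26481 and 13290 CPM in WW48, and 3250, 9208 and 3123 CPM in WS48. Replicate 2 was the highest library in WW24, WW48 and WS48 and the lowest in WS24. The same held gene by gene: replicate 2 was the highest library for 150 members in WW24, 145 in WW48 and 147 in WS48, against 22 in WS24, and for 107 members in all of WW24, WW48 and WS48. WS48 replicate 2 was at least 3 times both other WS48 libraries in 84 members, out of 257 genes of which this was true among the 27888. At the other end, the WS48 libraries lay within 2 times of each other in 55 members. A high WS48 replicate 2 raised R in stressed roots, which helped genes to meet the rule. How often each library was highest was not counted over all genes, and neither was the closeness of the WS48 libraries. Nothing is therefore read from these counts.

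**Figure D1:**
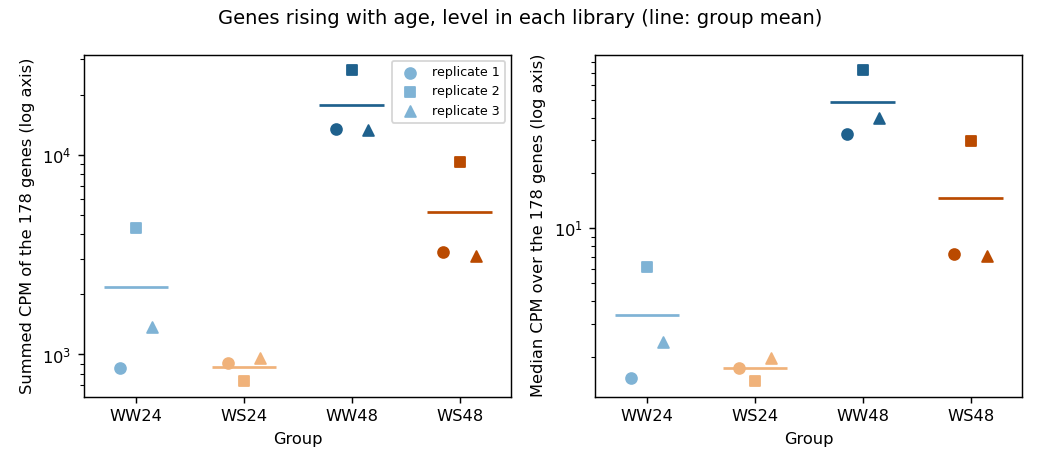
Summed (left) and median (right) CPM of the 178 genes in each library on a log axis, by group, with 1 point per replicate and a line at the group mean. The WW48 libraries hold 13290 to 26481 CPM in sum and the WS24 libraries 735 to 958 CPM, and replicate 2 is the highest in WW24, WW48 and WS48.

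The size of the rise is a description, since the rule used it. R had a median of 3.36 in WW48/WW24 (1.53 to 7.54) and 2.48 in WS48/WS24 (1.504 to 6.02), and it was larger in watered roots for 125 members and larger in stressed roots for 53. The mean level was highest in WW48 for 149 members and in WS48 for 29, and lowest in WS24 for 132 and in WW24 for 46. Median group means over the members were 3.30 CPM in WW24, 1.82 in WS24, 48.4 in WW48 and 18.3 in WS48. In edgeR's quasi-likelihood test, 123 members were called higher in WW48/WW24, where 3.53% of all genes tested were, and 11 in WS48/WS24, where 0.127% were, and nothing is read from these counts.

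**Figure D2:**
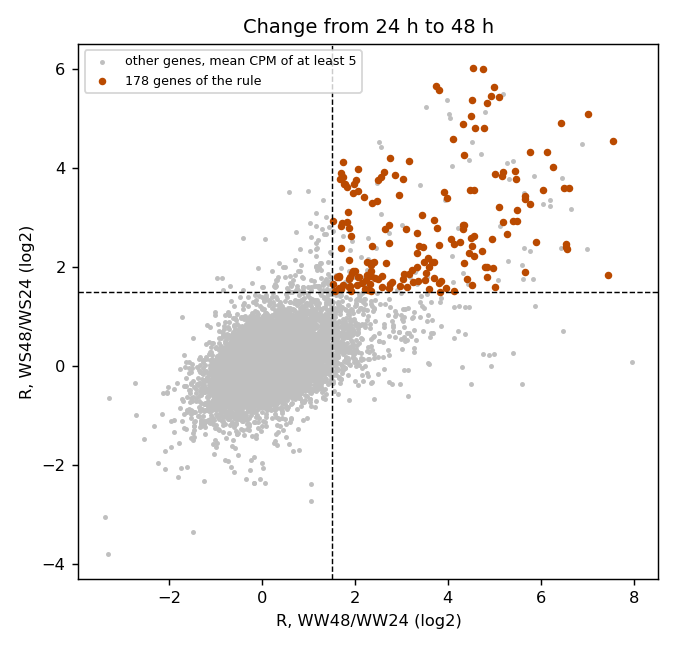
R of WW48/WW24 (horizontal) against R of WS48/WS24 (vertical) for the genes with a mean of at least 5 CPM, with the 178 members in colour and dashed lines at 1.5. Grey points in the upper right corner had overlapping libraries or were set aside, and the members there reach R of up to 7.54 in watered and 6.02 in stressed roots.

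Near the threshold the choice turned on small differences. Gh_A05G1855 (smaller R 1.504) and Gh_D02G0763 (1.519) were just inside. Gh_D11G2387 (1.493) and Gh_A02G0037 (1.489) met the rest of the rule and were just outside. Gh_D02G0763 was at 2.93, 4.67 and 2.56 CPM in WW24, 4.42, 3.52 and 3.84 in WS24, 7.85, 14.9 and 10.4 in WW48, and 8.54, 23.5 and 4.57 in WS48. In that gene WS48 replicate 3 lay only a little above the highest WS24 library. WS48 replicate 2 decided many more memberships: without it 90 genes met the rule, 87 of them among the 178.

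Many of these transcripts were lower in stressed than in watered roots of the same age. The rule did not use this comparison, although it used the same libraries. Its mean of at least 5 CPM could be reached mainly through WW48, which favours genes with WS48 below WW48. In 19 members the WS48 mean was under 5 CPM, so the 48 h counts describe the list only. The rule set WS24 below WS48 and WW24 below WW48, so the 24 h counts describe the list only as well. At 48 h, 67 of the 178 were called lower in WS48/WW48 and 0 higher, where 5.98% and 3.18% of the 43938 genes tested were (4.77% and 2.74% of tested genes with at least 5 CPM). A gene was called where the edgeR adjusted p did not exceed 0.05 and the log2 fold change was 1 or more in size. At an unadjusted p under 0.05, edgeR had 94 members lower and 0 higher, DESeq2 89 and 0, and limma-voom 115 and 1. The share of all genes at that unadjusted threshold was not counted, so nothing is read from these numbers. The called counts were 72 lower and 0 higher in DESeq2 and 87 and 0 in limma-voom, where 6.73% and 6.15% of all genes were called lower. At 24 h, 41 members were called lower in WS24/WW24 and 3 higher, where 4.93% and 3.75% of all genes tested were (4.78% and 2.69% of those with at least 5 CPM). Leaving out single libraries moved these counts: the 48 h count of lower calls was 35 without WW48 replicate 2, 33 and 31 without WS48 replicates 1 and 3, 106 without WS48 replicate 2 and 108 without WW24 replicate 2, and the 24 h count was 13, 11 and 19 without WS24 replicates 1, 2 and 3 and 26 without WW24 replicate 2. Over all genes the share called lower ranged in these fits from 3.49% to 8.09% at 48 h and from 2.77% to 3.51% at 24 h. With the compared groups alone only 133 members were tested at 24 h, and 14 of them were called lower (2.82% of all genes). In limma-voom the 24 h count was 7, and the members' share of 3.93% was close to the 3.58% of all genes.

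The fold changes were below 0 in 153 members at 48 h and 138 at 24 h. The median log2 fold change of the members was -1.49 at 48 h and -1.06 at 24 h, and that of all genes tested -0.01 and 0.00. All 178 members passed the low-count filter, and as their high 48 h level helped them to pass, these medians describe the list only. The libraries themselves did not overlap in 97 members at 48 h, all with WS48 below WW48 (18.7% of genes with at least 5 CPM), and 0 members had WS48 above WW48 (27.8%). At 24 h, WS24 lay below WW24 without overlap in 38 members (11% of genes) and above it in 15 (27.9%). The rule used the values of all 4 groups, so these counts describe the list only. In 3 members WS24 lay above WW24 and WS48 below WW48, each without overlap, as in 0.965% of genes at that level. Without WW24 replicate 2 the 24 h median was -0.20 and 6 members were called higher, as were 4.67% of all genes tested. Without WS48 replicate 2 the 48 h median was -2.76.

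Both stress comparisons called 21 members lower, as they did 2.56% of all genes tested. Another 20 were called lower at 24 h and not at 48 h (2.37% of all genes) and 46 at 48 h and not at 24 h (3.42%). At 24 h 3 were called higher with no call at 48 h (1.87%), and 88 were called in neither (86.6%). These counts, too, describe the list only. Whether the stress effect differed between the times was not tested, since that difference is the one between the time comparisons that the rule used. Against WW24, its control of like development, WS48 lay above WW24 without overlap in 83 members, where 24.9% of genes with at least 5 CPM did, and below it in 1, the laccase gene Gh_A05G2114, where 11.3% did. R of WS48/WW24 had a median of 1.71, and 14 members had a lower mean in WS48 than in WW24. The rule asked for high WS48 and low WW24 values, which favours WS48 above WW24, so nothing is read from these values.

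**Figure D3:**
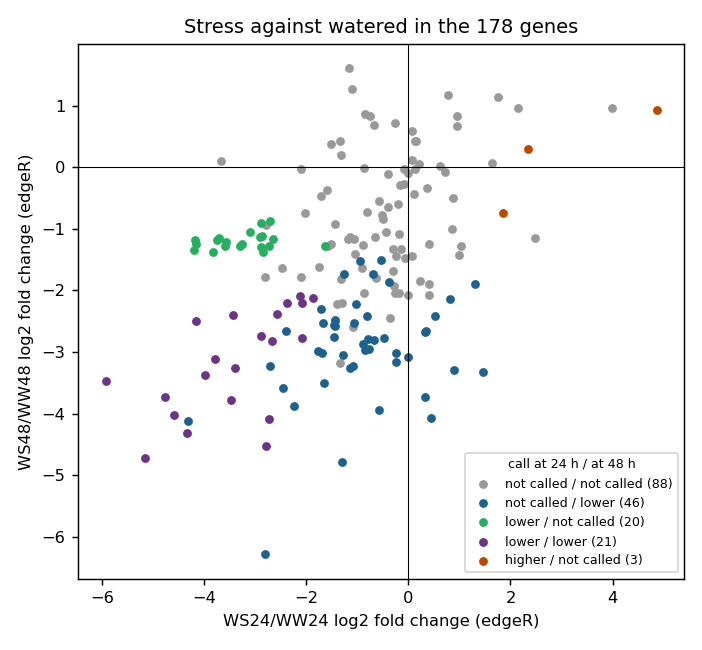
edgeR log2 fold change of WS24/WW24 (horizontal) and WS48/WW48 (vertical) for the 178 genes, coloured by call. The 21 genes called lower at both times lie in the lower left, and the 3 called higher at 24 h lie at the right near the line of no change at 48 h.

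The laccase 14 genes, a pair on chromosomes A05 and D05, showed the pattern at high levels. Gh_A05G2114 was at 35.8, 175 and 51.2 CPM in WW24, 4.51, 2.93 and 5.09 in WS24, 312, 416 and 229 in WW48, and 14.0, 32.8 and 13.9 in WS48. The highest stressed library at 48 h was below the lowest watered library at 24 h, so the rise under stress (R 2.15) ended under the level at which watered roots began. It fell by 4.58 ± 0.65 (log2 fold change ± SE) at 24 h (edgeR adjusted p = 0.000691) and by 4.02 ± 0.60 at 48 h (edgeR adjusted p = 0.00104) under stress. Gh_D05G2355 was at 25.5, 136 and 46.7 CPM in WW24, 9.03, 4.89 and 7.68 in WS24, 280, 550 and 234 in WW48, and 10.5, 53.9 and 15.8 in WS48. Its stressed libraries lay below the watered ones at each time, apart in both cases, and WS48 overlapped WW24. It fell by 3.47 ± 0.74 at 24 h and by 3.77 ± 0.72 at 48 h (edgeR adjusted p = 0.00857 and 0.00448). The calls of both genes were made in all 20 alternative fits run for each comparison. Reads can be shared between the copies of such a pair.

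A neighbour in the numbering, Gh_A05G2115, is also laccase 14 and is no member: its libraries stood at 115, 267 and 135 CPM in WW24 and 293, 370 and 209 CPM in WW48, with overlap and an R of 0.75. Its R in stressed roots was 1.55. Both member laccases belong to the list of 9 xylem markers. It holds genes of laccase 7, 11 and 14 and the xylem serine peptidase gene Gh_A11G0757. All 9 were called lower in WS24/WW24 and 6 in WS48/WW48, where 4.93% and 5.98% of all genes tested were. Like the other marker lists, it was picked by words in the functions of the paper's tables. Most of those functions belong to genes that the study had called in these libraries, so nothing is read from these calls. The 7 xylem markers that are not members summed to 151 to 460 CPM in WW24, 21.0 to 32.2 in WS24, 278 to 449 in WW48 and 50.6 to 58.6 in WS48. Gh_A05G2115 made up 58.1% to 82.5% of this sum in watered and 25.1% to 52.4% in stressed libraries, and without it the other 6 summed to 35.5 to 192 CPM in WW24, 15.7 to 19.8 in WS24, 68.5 to 105 in WW48 and 27.9 to 30.8 in WS48. None of these 6 reached R of 1.5 in WW48/WW24. It was -0.85 in the laccase 7 gene Gh_A04G0744, -0.38 and -0.61 in the laccase 11 genes Gh_A13G0237 and Gh_D13G0253, and 0.61 to 1.28 in the others. The negative values depended on WW24 replicate 2, which lay above all WW48 libraries in each of these genes. It stood at 56.8 CPM against 11.5 to 19.8 in Gh_A04G0744, 51.8 against 15.9 to 25.1 in Gh_A13G0237, and 54.2 against 16.0 to 20.4 in Gh_D13G0253. The laccase 7 gene Gh_D13G2524 rose without overlap in both treatments, with R of 1.28 in watered and 1.43 in stressed roots. The summed markers of dividing cells were higher under stress, at 516 to 620 CPM in WW24 and 465 to 526 in WW48 against 1065 to 1146 in WS24 and 894 to 1043 in WS48. The 12 genes, none at 0, were split by gene. Of them 5 were called higher and 4 lower at 24 h, and 6 higher and 4 lower at 48 h. Marker sums of phloem (27 genes, 1 at 0) were 110 to 159, 102 to 114, 162 to 224 and 107 to 118 CPM in WW24, WS24, WW48 and WS48. Those of root hairs (5 genes, none at 0) were 186 to 518, 135 to 189, 263 to 410 and 168 to 213 CPM in the same order of groups. By gene, 3 root hair markers were called higher and 2 lower at 24 h, and 3 higher and 0 lower at 48 h. Their median log2 fold change was 1.41 at 24 h and 1.15 at 48 h, although their sum was lower in WS48 than in WW48. Marker sums of photosynthetic cells (3 genes, none at 0) were 1.97 to 6.10, 10.4 to 12.4, 2.18 to 3.86 and 3.48 to 5.99 CPM, again in that order. The single root cap gene was at 0.615 to 2.47 CPM in watered and 6.18 to 9.03 CPM in stressed libraries. The part of tissue makeup in the members' differences was not tested.

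Gh_D06G1722, of the heavy metal transport/detoxification superfamily, was among the members with the largest stress differences. It was at 2.35, 48.9 and 18.5 CPM in WW24, 0.768, 0.489 and 0.934 in WS24, 261, 145 and 203 in WW48, and 5.89, 8.85 and 8.92 in WS48. The WW24 libraries were far apart, and every stressed library was below every watered library of the same time. It fell by 5.17 ± 0.92 at 24 h (edgeR adjusted p = 0.00305, a call that limma-voom did not make) and by 4.72 ± 0.74 at 48 h (edgeR adjusted p = 0.00147).

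The O-methyltransferase members belong to the same orthogroup of 22 genes and differed from each other. Gh_A12G0326 was at 5.75, 10.2 and 5.13 CPM in WW24, 1.63, 1.27 and 2.60 in WS24, 22.9, 47.1 and 14.4 in WW48, and 7.56, 6.88 and 4.13 in WS48. Stressed libraries were below watered ones at each time, and the gene fell by 2.09 ± 0.51 at 24 h and by 2.20 ± 0.44 at 48 h (edgeR adjusted p = 0.0168 and 0.00583). The 24 h call was lost in limma-voom and without WS24 replicate 1 or replicate 2, where the highest adjusted p was 0.0758.

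Gh_A11G2625 was nearly silent at 24 h, with 2 counts over the WW24 libraries and none over the WS24 libraries. It stood at 9.37, 51.0 and 13.6 CPM in WW48 and at 0.295, 20.0 and 1.41 CPM in WS48. Over pooled counts the level in WW48 was 292 times that in WW24, a ratio that rests on 2 counts. WS48 was at least 76.7-fold higher than WS24, with 3 counts over the group as the floor. The rule used both of these comparisons, so the folds are a description only. WS48 replicate 2 carried nearly all of the stressed reads. At 48 h the stress difference was -1.78 ± 1.03 with overlapping libraries and no call (edgeR adjusted p = 0.270).

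Over the list of O-methyltransferases with a function in the tables, 14 of 26 genes could be tested. Of these, 4 were called higher and 2 lower at 24 h, and 4 higher and 6 lower at 48 h. Their median log2 fold change was -0.84 at 24 h and -1.54 at 48 h, against 0.00 and -0.01 for all genes. Apart from the members, 1 more gene of the family met the demands on watered roots. Most functions in the tables belong to genes that the study had called in these libraries, so the list is no independent sample of the family. Lists of 17 further families held no member, among them class III peroxidases (23 tested), cytochrome P450s (24), receptor-like kinases (39), NAC transcription factors (14) and membrane transporters (97). The 17 include the glutathione S-transferases, which were set aside. As members were only 178 of 27888 genes with at least 5 CPM, nothing is read from lists without one. Of the class III peroxidases, 4 met the demands on watered roots and 3 those on stressed roots. Of 5 glutathione S-transferases tested, all met the demands on watered roots and 4 those on stressed roots. They are the genes set aside.

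**Figure D4:**
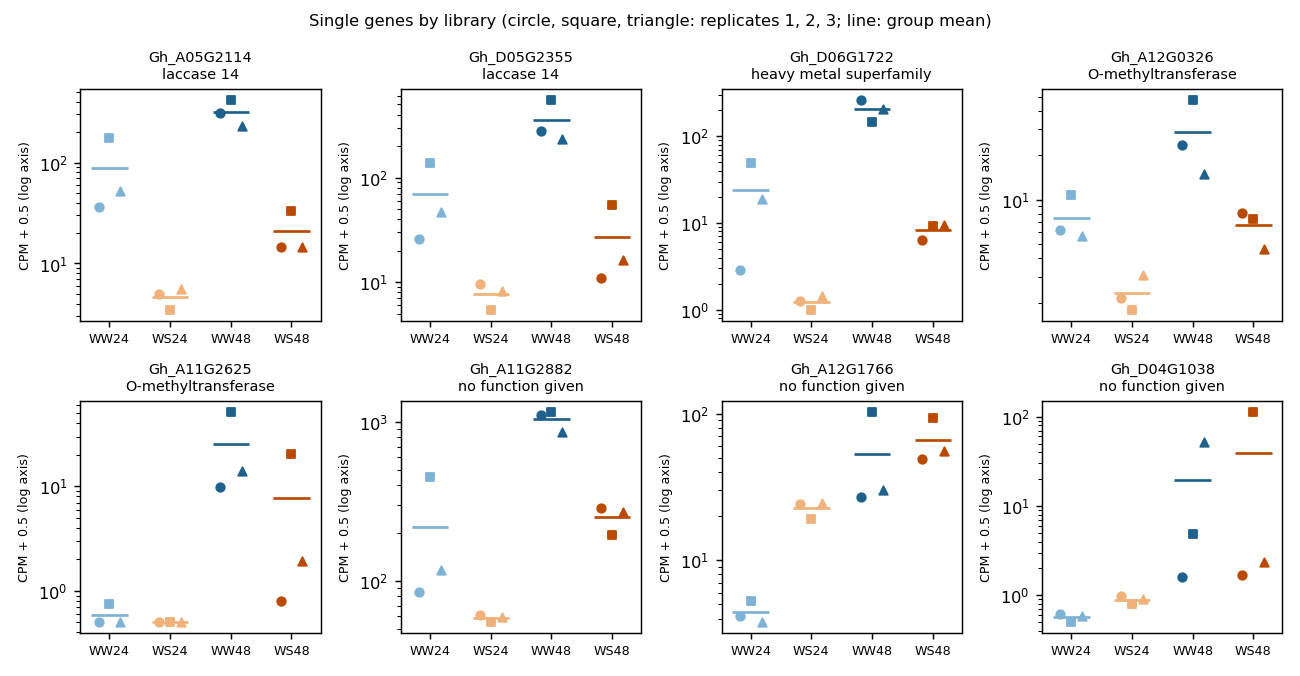
CPM + 0.5 on a log axis for 8 members by group, with a marker per replicate and a line at the group mean. Both laccase 14 genes and Gh_D06G1722 are lower in stressed than in watered libraries at each time, Gh_A12G1766 is higher in WS24 than in WW24, and Gh_D04G1038 is high in 1 library of WS48 (112 CPM) and 1 of WW48 (51.2 CPM).

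The most abundant members carry no function. Gh_A10G1512 was at 70.3, 471 and 140 CPM in WW24, 40.8, 34.2 and 47.7 in WS24, 1340, 1480 and 800 in WW48, and 117, 301 and 114 in WS48. Gh_A11G2882 was at 84.5, 454 and 117 CPM in WW24, 60.3, 54.5 and 58.7 in WS24, 1108, 1157 and 862 in WW48, and 286, 194 and 273 in WS48. Gh_D10G1761 was at 57.9, 330 and 94.7 CPM in WW24, 51.2, 40.8 and 60.4 in WS24, 831, 949 and 540 in WW48, and 142, 277 and 130 in WS48. In all of them the WW48 libraries were above every other library, and WW24 replicate 2 was at least 3 times the other WW24 libraries. All were called lower under stress at both times, by 2.68, 2.13 and 1.87 at 24 h and by 2.81, 2.09 and 2.12 at 48 h in this order (log2). The 24 h calls were the less stable ones: Gh_D10G1761 lost its call in 13 of 20 alternatives, Gh_A11G2882 in 6 and Gh_A10G1512 in 4. Without WW24 replicate 2 the 24 h differences shrank to -1.44 in Gh_A10G1512, -0.88 in Gh_A11G2882 and -0.67 in Gh_D10G1761, and the latter pair lost the call. Without any single WS24 library all of these genes lost it. The highest edgeR adjusted p over the alternatives at 24 h was 0.0702 in Gh_A10G1512, 0.0874 in Gh_A11G2882 and 0.168 in Gh_D10G1761. The 48 h calls were lost without WS48 replicate 1 or 3 in all of them, without WW48 replicate 2 in Gh_A11G2882 and Gh_D10G1761, without WS48 replicate 2 in Gh_A11G2882 and without WW48 replicate 1 in Gh_D10G1761 (highest edgeR adjusted p 0.0564, 0.0603 and 0.0988 for Gh_A10G1512, Gh_A11G2882 and Gh_D10G1761).

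Among the members called lower at both times, Gh_D06G1912 and Gh_D12G1412 followed Gh_D06G1722 in the size of the 48 h difference. Gh_D06G1912 was at 11.3, 9.84 and 2.92 CPM in WW24, 1.25, 0.489 and 2.08 in WS24, 69.4, 327 and 157 in WW48, and 13.3, 4.99 and 6.20 in WS48. Stressed roots at 48 h stood at the level of watered roots at 24 h, with overlapping libraries. It fell by 2.79 ± 0.77 at 24 h and by 4.52 ± 0.65 at 48 h (edgeR adjusted p = 0.0302 and 0.000788). Gh_D12G1412 was at 1.41, 4.55 and 1.94 CPM in WW24, 0.288, 0 and 0.104 in WS24, 16.6, 62.0 and 15.8 in WW48, and 0.982, 2.45 and 1.31 in WS48. It fell by 4.33 ± 1.06 and by 4.32 ± 0.65 (edgeR adjusted p = 0.0180 and 0.00106), with 4 counts over the WS24 libraries. The 48 h calls of both genes were made in all 20 alternatives. Their 24 h calls were lost in 6 of 20 for Gh_D06G1912 (without WW24 replicate 1 or 2, without each WS24 library, and in limma-voom) and in 3 of 20 for Gh_D12G1412 (without WS24 replicate 2 or 3, and in limma-voom).

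The 3 members called higher at 24 h under stress were named after their values were seen. Gh_A12G1766 was at 3.64, 4.80 and 3.27 CPM in WW24, 23.7, 18.5 and 24.0 in WS24, 26.6, 102 and 29.6 in WW48, and 48.4, 93.1 and 55.5 in WS48. WS24 was already near the lower WW48 libraries. The gene was higher under stress by 2.35 ± 0.50 at 24 h (edgeR adjusted p = 0.00889, a call made in all 20 alternatives) and differed by 0.29 ± 0.43 at 48 h (edgeR adjusted p = 0.694). Gh_D09G1517 was at 1.76, 9.22 and 4.95 CPM in WW24, 20.0, 20.3 and 24.2 in WS24, 89.5, 209 and 68.2 in WW48, and 90.2, 57.5 and 75.4 in WS48. It rose by 1.85 ± 0.52 in WS24/WW24 (edgeR adjusted p = 0.0318), a call lost in 6 of 20 alternatives, namely without WW24 replicate 1 or 3, without each WS24 library and with the compared groups alone. Gh_A09G1506 had 3 counts over the WW24 libraries and 115 over the WS24 libraries, a ratio of 35.4 (95% exact counting interval 11.8 to 174), and its libraries stood at 2.98, 3.42 and 5.09 CPM in WS24, 12.5, 22.7 and 5.92 in WW48, and 38.2, 15.9 and 24.7 in WS48. Its call (edgeR adjusted p = 0.00365) was lost in limma-voom. In gene numbering Gh_A09G1506 is 2 from the nearest glutathione S-transferase gene that was set aside, and Gh_D09G1517 is 3 from another.

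Gh_A02G0744 was named after its values were seen, as the 1 member whose 95% intervals of both stress differences stayed within 1 of 0. It was at 18.4, 55.1 and 17.4 CPM in WW24, 34.8, 27.2 and 34.9 in WS24, 87.7, 136 and 68.1 in WW48, and 104, 99.2 and 90.1 in WS48. The libraries of the treatments overlapped at each time. The log2 difference was -0.10 (95% interval -0.99 to 0.80) at 24 h and -0.02 (-0.89 to 0.85) at 48 h. The 24 h value depended on WW24 replicate 2: without it the WS24 libraries were all above the WW24 libraries and the difference was 0.77 (edgeR adjusted p = 0.0364, under the fold needed for a call).

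The members with the largest smaller R rested on few libraries. Gh_D03G1513 was at 0.235, 0 and 0.265 CPM in WW24, 0.576, 0 and 0.104 in WS24, 39.5, 168 and 49.5 in WW48, and 2.06, 66.1 and 4.90 in WS48. Its WS48 mean of 24.4 CPM came mostly from replicate 2. Gh_D04G1038 had 2 counts over WW24 and 12 over WS24, and stood at 1.12, 4.35 and 51.2 CPM in WW48 and at 1.18, 112 and 1.85 CPM in WS48. Gh_D09G1568, with 2 and 5 counts at 24 h, stood at 1.32, 6.06 and 45.9 CPM in WW48 and at 1.18, 95.3 and 1.85 CPM in WS48. Neither was called under stress, and for both WW48 replicate 3 and WS48 replicate 2 were the high libraries.

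That pattern was shared by 12 members, in which WW48 replicate 3 and WS48 replicate 2 were each at least 3 times the other libraries of their group, out of 28 such genes among the 27888. The others are Gh_A13G0371, Gh_A09G2435, Gh_A12G2493, Gh_A04G0582, Gh_D12G2621, Gh_A11G0609, Gh_A06G1091, Gh_A12G2375, Gh_D11G0697 and Gh_D11G1391. Gh_A13G0371, the most abundant of them, was at 1.32, 5.44 and 81.3 CPM in WW48 and at 1.28, 159 and 5.01 CPM in WS48. Without both libraries 101 genes met the rule, 81 of them among the 178. These libraries come from different groups and carry different replicate numbers, and what they share was not tested.

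**Figure D5:**
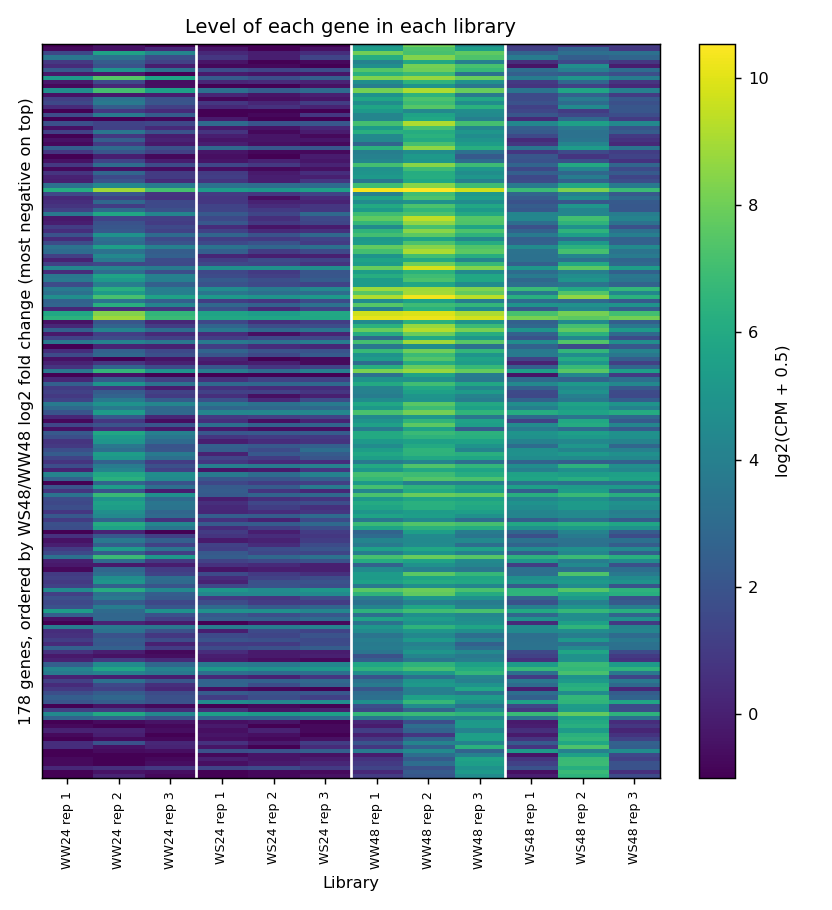
Level of each of the 178 genes (lines) in each of the 12 libraries (columns) as log2(CPM + 0.5), ordered by the edgeR log2 fold change of WS48/WW48 with the most negative on top. The WW48 columns are the brightest over most of the list, WS24 is the darkest group, and replicate 2 is brighter than its group in WW24 and WS48.

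By their IDs the members were spread over both subgenomes. The A subgenome held 84 (47.2%, against 49.0% of genes with at least 5 CPM), the D subgenome 92 (51.7% against 50.0%) and scaffolds 2. On chromosomes A02 and D05, 10 and 18 members made up 1.27% and 1.11% of the genes at that level, and on A07 and D07, with 2 members each, 0.199% and 0.195%. Over the whole genome the members were 178 of 27888 such genes, and the spread over chromosomes was not tested. Runs of members numbered at most 5 apart were 20 in number, 16 of 2 genes and 4 of 3, and held 44 members, and 17 neighbouring pairs had consecutive numbers. The runs were not compared with those among all genes at that level, so nothing is read from their number. One run was Gh_A10G1511, Gh_A10G1512 and Gh_A10G1513, which holds the most abundant member. Another was Gh_D13G2157 and Gh_D13G2158. Near-identical neighbours can share reads, so members of a run may not be separate measurements.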

How the data were processed

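The 12 libraries were single-end and made with a strand-specific kit. The authors aligned reads to upland cotton genome NAU-NBT v1.1, and the submitters' processing notes name HISAT2 1.0 and HTSeq 0.6.1. The authors deposited whole-number read counts for 70477 genes, with 4 lines that name no gene (31.2% to 39.1% of reads, left out here). The normalized values that the authors deposited beside them, rounded TMM values (a score), were not used. The strand setting of the counting was not given in the sources used here: antisense partners and A and D copies may share reads.

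The tests used edgeR 4.0.16 and limma 3.58.1 under R 4.3.3: filterByExpr (minimum count 10, total 15, 43938 genes kept), TMM, a single model of the 4 groups, quasi-likelihood tests and Benjamini-Hochberg adjustment over all genes kept. Levels are plain CPM and fold changes TMM-scaled. Library size alone moves the median of all genes to 0.15 (log2) in WS24/WW24. Alternatives were RLE factors, library size, no filter, DESeq2 1.42.0, limma-voom, the compared groups alone, a replicate block and each library left out. Counting intervals cover counting error only.

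Named are the members with a function, the 3 with the highest mean, the 3 with the largest smaller R, the 3 called lower at both times with the largest 48 h difference, and those nearest the threshold. Any other is said to be named after its values were seen, or is listed as a neighbour or flagged gene. The members, lists and tests were chosen with earlier results of these data known. Functions come from the paper's tables, one of which was held only in part, and the reference gene table matched 0 of the IDs, so no sequences are shown.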

Additional observations from a re-analysis of the deposited data

Results flagged for a closer look

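In 3 members every WS24 library lay above every WW24 library and every WS48 library below every WW48 library, as in 0.965% of all genes with at least 5 CPM. The stress effect at 48 h minus that at 24 h, as R on the log2 scale, was -4.13 in Gh_D13G2158, -3.03 in Gh_D13G2157 and -2.61 in Gh_D11G0293. The difference was not tested, because it equals the difference of the time comparisons that chose the members. Gh_D13G2158 was at 3.05, 1.97 and 2.30 CPM in WW24, 7.49, 3.52 and 3.94 in WS24, 135, 551 and 134 in WW48, and 19.4, 46.6 and 20.2 in WS48. Its neighbour Gh_D13G2157 was at 19.1, 17.1 and 12.6 CPM in WW24, 26.1, 26.9 and 25.1 in WS24, 231, 878 and 325 in WW48, and 34.4, 199 and 42.7 in WS48. Gh_D11G0293 was a low gene at 24 h, with 11 counts over the WW24 libraries and 33 over the WS24 libraries. None was called at 24 h, and all were called lower at 48 h by edgeR, by 3.28, 2.42 and 1.90 on the log2 scale (adjusted p = 0.00219, 0.0199 and 0.0182). The call of Gh_D13G2158 was made in all 20 alternatives, and those of the other two were each lost in 3. Gh_D13G2157 lost it without WW48 replicate 2 and without WS48 replicate 1 or 3 (highest adjusted p = 0.0962), and Gh_D11G0293 without WW48 replicate 2 and without WS48 replicate 2 or 3 (0.0922).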

How the results depend on the processing

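The number of members followed the rule closely: 302 with R of at least 1, 100 with R of at least 2, 292 with a mean of at least 1 CPM, 101 without WW48 replicate 3 and WS48 replicate 2 together (added after seeing the data), and 90 to 249 with each library left out, the lowest without WS48 replicate 2. The share of all genes tested that was called follows each count in brackets. In WS24/WW24, 41 members were called lower (4.93%), against 7 in limma-voom (3.58%) and 11 to 51 with each library left out (2.77% to 6.85%). With the compared groups alone 14 of 133 members tested were called lower (2.82%). Called higher were 3 (3.75%), against 2 to 6 with each library left out (2.55% to 4.67%). With the 3 libraries numbered 2 of WW24, WW48 and WS48 left out together (added after seeing the data), 15 were (5.38%). In WS48/WW48, 67 were called lower (5.98%), against 31 to 108 with each library left out (3.49% to 8.09%) and 145 without those 3 libraries (7.57%). Called higher were 0 (3.18%), against 0 to 1 with each library left out (2.27% to 4.02%) and 1 without those 3 libraries (3.99%). The replicate block gave 38 lower (4.83%) and 3 higher (3.83%) at 24 h, and 96 lower (6.76%) and 0 higher (3.24%) at 48 h. Replicate numbers were not taken to pair the samples, since same-numbered libraries correlated at -0.179 to 0.38 in their deviations from the group means, 6 of 18 pairs above 0.1. The libraries numbered 2 of WW24, WW48 and WS48 did deviate together (0.38, 0.142 and 0.236), while that of WS24 correlated with them at -0.179 to -0.0858. Of the calls lower, 3 of 41 and 29 of 67 were made in every alternative. No fold change of a named gene that was called turned its sign. At 24 h, 10 members had 3 or fewer counts over WW24 and 10 over WS24, so that their 24 h ratios rest on few reads.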
